A study of Gallus gallus with 6 samples.

Results

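Heat shock chaperones of the cytosol and of mitochondria were examined in primary chick lens cells after pharmacological activation of HIF1α. The members were 10 genes: HSPA8, HSPA2, HSPH1 and DNAJA1 of the HSP70 system, HSP90AA1 and HSP90AB1 of the HSP90 system, HSPD1 and HSPE1 of the mitochondrial chaperonin, the small heat shock gene HSPB1 and the heat shock transcription factor HSF2. Each gene symbol was looked up in the gene names of the deposited expression table, and all 10 were found, each at a single locus, among 17340 loci. RNA-seq was performed on 6 libraries of total RNA from lens epithelial cells of embryonic day 10 White Leghorn chicken embryos. The treated group (3 libraries) was exposed to 1 mM DMOG for 4 h, and the untreated group (3 libraries) was not. DMOG (dimethyloxalylglycine) inhibits the prolyl hydroxylases that mark HIF1α for degradation, as well as other 2-oxoglutarate dioxygenases. Both groups were grown on laminin in medium with serum, the labels name no vehicle for the untreated cells, and the methods call the libraries biological triplicates without saying which embryos each culture came from. The question was whether genes of the heat shock system changed when HIF1α was activated.

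HSP70 proteins bind unfolded stretches of other proteins in a cycle of ATP hydrolysis that J-domain proteins such as DNAJA1 stimulate and that exchange factors such as HSPH1 reset. HSP90 proteins take over partly folded clients, among them kinases and steroid receptors, with the help of co-chaperones. In the mitochondrial matrix, HSPD1 forms the barrel and HSPE1 the lid of the chaperonin that folds imported proteins. Small heat shock proteins, the family to which the lens α-crystallins belong, hold unfolding proteins in solution. Heat shock factors bind the promoters of these genes, and in mammals the family member HSF4 is required for a clear lens.

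Values were FPKM, read fragments scaled to transcript length and to the reads of the library, so levels can be set side by side between genes of different length. The read depth behind each value is unknown, and precision is given by the spread between libraries. Loci named only for small RNA families or microRNAs, called small RNA loci here, held from 24.0% to 37.4% of the FPKM of a library, the most in DMOG library 3. The lens label was checked against 15 marker genes, of which 13 were matched to 12 loci. None of these loci was at 0 throughout, and their summed level was 1128 to 1757 FPKM in the DMOG libraries and 1215 to 1810.3 in the untreated libraries. Of the erythroid list, 6 of 9 genes were matched and 5, all of them globin genes, were listed at 0 in every library; the sixth, ALAS2, gave a summed level of 8.12 to 11.6 FPKM with DMOG and 10.0 to 12.9 without. All 8 mesenchymal genes were matched, summing to 9.91 to 19.6 and 12.9 to 21.6 FPKM, with TWIST1, PRRX1 and LUM at 0 throughout. POSTN averaged 9.27 FPKM over the 6 libraries, PDGFRA 4.12 and COL3A1 1.98, while COL1A1 and COL1A2 averaged 0.278 and 0.105. Of the retinal list, 6 of 8 were matched and 4 were at 0 throughout, and the sum was 2.29 to 3.69 FPKM with DMOG and 1.09 to 3.01 without. As a check of the treatment labels, EGLN3, a prolyl hydroxylase gene induced by HIF1α, measured 57.15, 54.0 and 47.6 FPKM with DMOG against 1.35, 2.06 and 1.87 without, in the order of libraries 1, 2 and 3 that is kept below. The log2 fold change was 4.57 (SE 0.21, limma adjusted p 0.000439). BNIP3L, the control gene of the study, measured 70.2, 65.0 and 32.55 FPKM with DMOG against 19.1, 25.3 and 26.9 without. Every DMOG library was above every untreated library, with DMOG library 3 the lowest of its group. The log2 fold change of BNIP3L was 1.15 (SE 0.31, limma adjusted p 0.329).

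The 10 members covered a wide range of levels. HSPA8, the constitutive HSP70 also called HSC70, had the highest level of the 10 genes, with a mean of 425 FPKM (SD 69.8, n = 3) in untreated cells. HSP90AA1 followed with 189.9 FPKM (SD 41.6, n = 3) and HSPD1 with 174 (SD 15.1, n = 3). HSPE1 measured 90.3 FPKM (SD 16.7, n = 3), HSPA2 51.6 (SD 30.9, n = 3) and HSP90AB1 41.55 (SD 20.2, n = 3). HSPH1 and DNAJA1 lay at 32.55 FPKM (SD 2.26, n = 3) and 25.6 (SD 2.36, n = 3), and HSF2 and HSPB1 at 10.3 (SD 1.499, n = 3) and 8.24 (SD 3.89, n = 3). Over all 6 libraries, HSPA8 lay at the 99.7th percentile of mean FPKM among the 9816 loci that averaged 1 FPKM or more, DNAJA1 at the 90.3rd and HSPB1 at the 58.4th.

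Between neighbours in this order, the ranges over the 6 libraries were separate only from HSPA8 to HSP90AA1, from HSPD1 to HSPE1 and from DNAJA1 to HSF2. HSP90AB1 was above HSPA2 in 3 of the 6 libraries and HSF2 above HSPB1 in 3, so neither order held beyond the spread. HSP90AA1 exceeded HSPD1 in 5 of 6 libraries, the exception being untreated library 1. The 10 genes together summed to 960 to 1133 FPKM in the DMOG libraries and 940 to 1204 in the untreated libraries, and the groups overlapped.

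**Figure D1:**
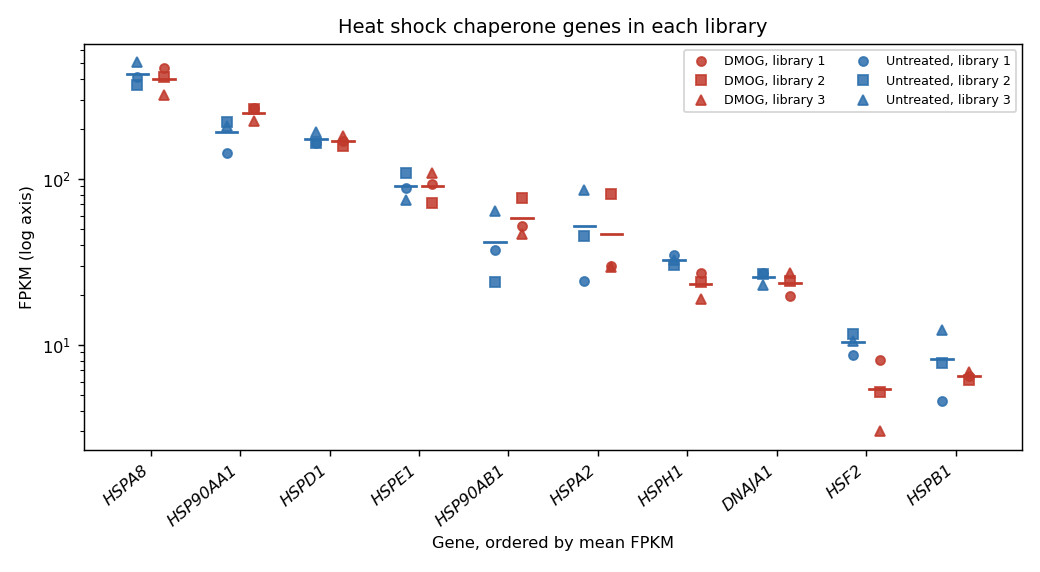
FPKM (log axis) of the 10 members in each library, ordered by mean level, with untreated libraries in blue, DMOG libraries in red and a bar at each group mean (n = 3). The groups overlap for 7 of the genes, while all 3 DMOG libraries lie below the untreated libraries for HSF2 and HSPH1 and above them for HSP90AA1.

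With DMOG, 6 of the 10 members differed from the untreated cells by less than the standard error of the difference, beside 5534 of all 9816 tested loci. HSF2, a transcription factor and not itself a chaperone, was the only member to pass the limits set here. For each of the 9816 tested loci, limma compared log2(FPKM + 0.5) between the groups. The limits took the cutoffs of the study, an unadjusted p under 0.05 together with a log2 fold change of 0.60 or more, up or down. The study applied its cutoffs to a p from edgeR, so its own calls can differ. In the limma fit, the limits were passed by 1 of the 10 members, HSF2, which was lower with DMOG, beside 7.81% of all tested loci (4.97% lower and 2.84% higher). Among all tested loci, 36.4% of those past the limits were higher with DMOG, a share that was 56.1% with the libraries scaled to the same median, 56.2% with quantile normalization and 48.2% with upper quartile scaling. After Benjamini-Hochberg adjustment over the 9816 loci, 0 members had an adjusted p under 0.05 in the limma fit, beside 0.194% of all tested loci. An unadjusted p under 0.05 was found for 2 members (HSF2 and HSPH1), beside 9.0% of all tested loci. Which members these were depended on the scaling. With median scaling they were HSF2 (limma p 0.0279) and HSP90AA1 (limma p 0.0241, log2 fold change 0.55). HSPH1 was then at -0.36 (limma p 0.0732). With upper quartile scaling HSF2, HSPH1 and HSP90AA1 were all under 0.05 (limma p 0.0239, 0.0494 and 0.0333). An adjusted p above 0.05 does not show that a gene did not change. The groups did not overlap for 3 members, HSP90AA1 above and HSPH1 and HSF2 below, beside 15.9% of all tested loci (4.47% above and 11.4% below). The median log2 fold change of the 10 members was -0.11, and that of all tested loci was -0.13. Scaling the libraries to the same median brought these medians to 0.02 and -0.01, so the sign of medians this near 0 depended on the scaling. In bulk RNA, fewer cells of a type and less RNA per cell cannot be told apart.

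**Figure D2:**
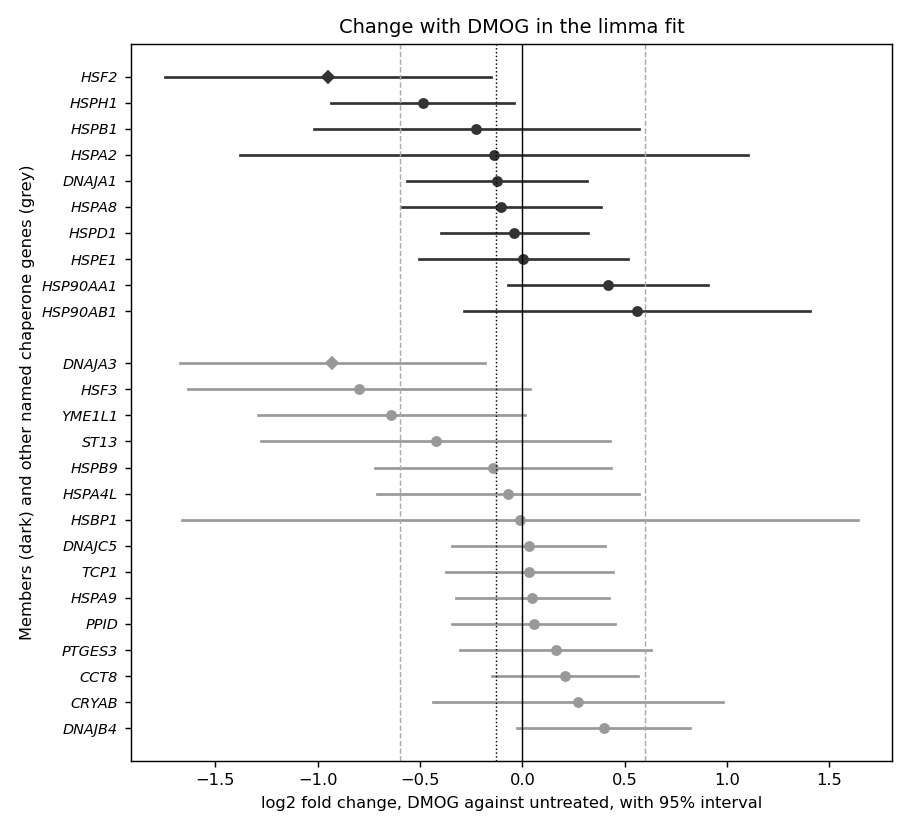
Log2 fold change of each member (dark) and of 15 other named genes of the chaperone lists (grey) with DMOG against untreated, with the 95% interval of the limma fit (n = 3 and 3). Diamonds mark HSF2 and DNAJA3, which passed the limits, dashed lines mark a log2 fold change of 0.60 in either direction, and the dotted line marks the median of all tested loci at -0.13.

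HSF2, a heat shock factor known mainly for roles in development and differentiation in mammals, measured 8.11, 5.21 and 3.01 FPKM with DMOG. Without DMOG it measured 8.71, 11.7 and 10.55 FPKM. Every DMOG library was below every untreated library, with DMOG library 1 close to untreated library 1 and DMOG library 3 farthest away. The mean fell from 10.3 FPKM (SD 1.499, n = 3) to 5.44 (SD 2.56, n = 3). The log2 fold change was -0.95 (SE 0.34, limma p 0.0256, adjusted p 0.484), or -0.82 relative to the median of all tested loci. Its 95% interval was a fold of 0.298 to 0.900. The exact two-sided permutation p was 0.1, the smallest that 3 libraries against 3 can give. HSF2 did not pass the limits without DMOG library 2 (log2 fold change -0.97), DMOG library 3 (-0.62), untreated library 2 (-0.86) or untreated library 3 (-0.93). The share of FPKM at small RNA loci was 24.8%, 33.3% and 37.4% in DMOG libraries 1, 2 and 3, the reverse of the order of HSF2 in them. In untreated libraries 1, 2 and 3 it was 28.7%, 24.0% and 26.7%, also the reverse within that group. Across the groups this order did not hold, as DMOG library 1 had a smaller share than untreated library 1 but less HSF2. Of all loci of the table, 29.4%, 33.0% and 35.9% stood at 0 with DMOG against 30.5%, 25.5% and 25.2% without, so the libraries with the most loci at 0, DMOG libraries 3 and 2, were also the lowest for HSF2. The part of these shares in the result was not tested. With every library scaled to the same FPKM sum outside small RNA loci, HSF2 had a log2 fold change of -0.96 and passed the limits. This scaling was chosen after seeing the data. It left the median log2 fold change of all tested loci at -0.14, against -0.13 in the main fit. It does not test the part of either share in the result.

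Of 5 further genes, the other heat shock factors and HSBP1, 4 were matched, 3 were tested and 0 passed the limits, beside 7.81% of all tested loci. HSF3, which in chicken takes part in the heat shock response, measured 4.96, 2.25 and 4.97 FPKM with DMOG against 5.47, 9.82 and 6.51 without. All its DMOG libraries were below the untreated libraries, and the log2 fold change was -0.80 (adjusted p 0.565, SE 0.36). Without DMOG library 3, HSF3 passed the limits at -0.96. HSF1, the main factor of the heat stress response in mammals, shares its locus with MROH1 and an unnamed gene. That locus measured 2.56 to 4.19 FPKM with DMOG against 2.59 to 3.72 without. HSF4 was too low to be tested, with 0.95 FPKM in DMOG library 1, 0.83 and 1.13 in untreated libraries 2 and 3, and 0 listed in the other libraries. HSF1 and HSF4 were singled out after their values were seen. HSBP1, a binding protein that restrains heat shock factors, ranged from 3.28 to 17.0 FPKM, with its low values in DMOG library 2 and untreated library 3.

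In the HSP70 system, HSPA8 measured 461, 412 and 319 FPKM with DMOG against 408, 366 and 502 without. Its highest and lowest values were in untreated library 3 and DMOG library 3, and the groups overlapped. The fitted change was -0.10 on the log2 scale (adjusted p 0.904, SE 0.21), with a 95% interval of 0.665- to 1.31-fold. This locus also holds the small RNA RF00016, so the values belong to both. HSPA2, which RefSeq lists for chicken with the synonym HSP70, measured 29.65, 80.4 and 29.45 FPKM with DMOG against 24.3, 45.5 and 85.1 without. The high libraries were DMOG library 2 and untreated library 3, and each group spanned nearly the whole range. HSPA2 differed 2.73-fold between the lowest and highest DMOG library and 3.51-fold between the untreated libraries. The fitted change was -0.14 on the log2 scale (adjusted p 0.956, SE 0.53). Its interval was the widest of the 10 members, from 0.384- to 2.15-fold, and it includes changes in either direction.

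HSPH1, a large HSP70 relative that acts as an exchange factor and was formerly called HSP105, measured 27.2, 23.95 and 18.75 FPKM with DMOG against 34.9, 30.4 and 32.4 without. Every DMOG library was below every untreated library, and DMOG library 3 was again the lowest. The log2 fold change was -0.49 (SE 0.19, limma p 0.0362, adjusted p 0.523), which is under the limit on fold change, and -0.36 relative to the median of all tested loci. Its 95% interval was a fold of 0.523 to 0.972. Without DMOG library 1 it was -0.61 and passed the limits, and without DMOG library 3 it was -0.34. DNAJA1, a J-domain partner of HSPA8, measured 19.7, 24.1 and 27.0 FPKM with DMOG against 27.2, 26.7 and 22.9 without. The groups overlapped, and the log2 fold change was -0.12 (adjusted p 0.867, SE 0.19), with an interval of 0.677- to 1.24-fold. Its locus also holds RF00155.

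Of 10 further HSP70 relatives and exchange factors, 9 were tested and 0 passed the limits, beside 7.81% of all tested loci. Their log2 fold changes ran from -1.20 to 0.01 with a median of -0.34. ST13, a co-chaperone that binds HSP70 and HSP90, measured 18.8, 43.0 and 20.2 FPKM with DMOG against 23.65, 43.2 and 39.3 without. Without DMOG library 2, ST13 passed the limits at -0.80. HSPA4L, a relative of HSPH1, measured 24.3, 13.9 and 12.3 FPKM with DMOG against 15.0 to 18.4 without. BAG3, an exchange factor that links HSP70 to autophagy, was singled out after its values were seen. It measured 1.70, 15.7 and 19.8 FPKM with DMOG against 17.97, 18.8 and 24.25 without, so DMOG library 1 stood far below the rest. BAG3 had a fitted log2 change of -1.20 (adjusted p 0.682, SE 0.77), which was -0.19 when DMOG library 1 was left out. Of 12 cytosolic J-domain genes, all were tested and 0 passed the limits, beside 7.81% of all tested loci, with a median of -0.02. The DMOG libraries were all above the untreated libraries for DNAJB4, a cytosolic J-domain protein, at 32.1, 35.45 and 26.3 FPKM against 22.0, 23.2 and 25.3. Its log2 fold change was 0.40 (adjusted p 0.567, SE 0.18). DNAJC5, at a locus shared with TPD52L2, measured 26.15 to 31.3 FPKM over all libraries.

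Among the HSP90 genes, HSP90AA1 encodes the isoform that is stress-inducible in mammals and HSP90AB1 the constitutive isoform. HSP90AA1 measured 266, 264 and 221 FPKM with DMOG against 142, 219 and 209 without. All 3 DMOG libraries were above the untreated libraries, but DMOG library 3 exceeded untreated library 2 by a small margin. The means were 250.5 FPKM (SD 25.2, n = 3) and 189.9 (SD 41.6, n = 3). The fitted change of 0.42 on the log2 scale (SE 0.21, limma p 0.0831, adjusted p 0.593), or 0.55 relative to the median of all tested loci, did not pass the limits. The interval was 0.953- to 1.88-fold. Without untreated library 1, the lowest of the 6, it was 0.22. HSP90AB1 measured 51.8, 76.8 and 46.2 FPKM with DMOG against 37.0, 24.0 and 63.6 without. Untreated library 3 lay above DMOG libraries 1 and 3, so the groups overlapped. The log2 fold change was 0.56 (adjusted p 0.688, SE 0.36), with an interval of 0.820- to 2.65-fold. Without untreated library 3, HSP90AB1 passed the limits at 0.92, and without untreated library 2 it was 0.23.

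Of 14 HSP90 co-chaperone genes, 12 were tested and 0 passed the limits, beside 7.81% of all tested loci. Their log2 fold changes ran from -0.55 to 0.18 with a median of 0.0023. Of the 12 changes, 11 were smaller in size than their standard error, beside 5534 of all 9816 tested loci. PPID, a cyclophilin that binds HSP90, measured 38.4 to 48.0 FPKM over all libraries, with a log2 fold change of 0.06 (adjusted p 0.945, SE 0.17). PTGES3, the p23 co-chaperone, lies in a locus joined with NACA, ATP5F1B and RF00273, which measured 23.75 to 35.9 FPKM.

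Of the mitochondrial chaperonin genes, HSPD1 varied the least between libraries. It measured 169, 158 and 180 FPKM with DMOG against 164, 165 and 191 without, a range of 1.21-fold over all 6 libraries. The median range over all tested loci was 2.37-fold. HSPD1 lay at the 99.1st percentile of mean FPKM, and that median is not matched for level. The log2 fold change of HSPD1 was -0.04 (adjusted p 0.957, SE 0.15), and its 95% interval of 0.760- to 1.25-fold was the narrowest of the 10 members. HSPE1 measured 93.5, 71.2 and 108 FPKM with DMOG against 88.3, 108 and 74.8 without, and its groups overlapped almost fully. The log2 fold change was 0.0052 (adjusted p 0.996, SE 0.22), with an interval of 0.704- to 1.43-fold. In the RefSeq annotation of GRCg7b these genes are neighbours on the same chromosome with 0 genes between them.

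Of 13 further mitochondrial chaperone and protease genes, 11 were tested and 1, DNAJA3, passed the limits (9.09%), beside 7.81% of all tested loci. DNAJA3 encodes the mitochondrial J-domain partner of HSPA9 and measured 7.86, 4.79 and 3.11 FPKM with DMOG against 10.2, 9.21 and 10.1 without. All DMOG libraries were below the untreated libraries. DNAJA3 fell by 0.93 on the log2 scale (SE 0.32, limma p 0.0209, adjusted p 0.457), and it did not pass the limits without DMOG library 2, DMOG library 3, untreated library 1 or untreated library 3, at -0.91, -0.63, -0.90 and -0.91. Its DMOG libraries had the same order as those of HSF2, and it too was lowest in DMOG libraries 3 and 2, the libraries with the largest shares of loci at 0 (35.9% and 33.0%). The share of all tested loci with this order was not counted, and a link between these genes was not tested. HSPA9, the mitochondrial HSP70, measured 50.1, 57.0 and 46.0 FPKM with DMOG against 46.5, 51.4 and 49.6 without, at a locus that also holds RF00154. Its log2 fold change was 0.05 (adjusted p 0.949, SE 0.16), with an interval of 0.800- to 1.34-fold. YME1L1, a protease of the inner membrane, measured 41.0, 19.8 and 25.3 FPKM with DMOG against 44.1, 49.3 and 36.55 without (log2 fold change -0.64, adjusted p 0.561, SE 0.28). With quantile normalization, and without DMOG library 1, YME1L1 passed the limits at -0.65 and -0.93.

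HSPB1, the small heat shock protein often called HSP27 in mammals, measured 6.45, 6.11 and 6.88 FPKM with DMOG against 4.58, 7.81 and 12.3 without. The DMOG libraries were close together and lay within the range of the untreated libraries. The log2 fold change was -0.22 (adjusted p 0.866, SE 0.34), with an interval of 0.494- to 1.48-fold, and it was 0.10 without untreated library 3. Of 10 further small heat shock genes, 7 were matched, 4 were tested and 0 passed the limits, beside 7.81% of all tested loci. CRYAB, αB-crystallin, measured 236, 248 and 152 FPKM with DMOG against 148, 133 and 258 without, and HSPB9 measured 17.7 to 21.4 and 15.6 to 29.1 FPKM. CRYAB was also counted among the lens markers. CRYAA, the other α-crystallin gene, averaged 796 FPKM over the 6 libraries but was counted only as a lens marker and not in this list. HSPB3, HSPB7 and HSPB8, named after their values were seen, were each at 1.70 FPKM or less in every library.

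The cytosolic chaperonin TRiC, which folds actin and tubulin, was measured beside the mitochondrial one. Of 14 TRiC and prefoldin genes, 13 were tested and 0 passed the limits, beside 7.81% of all tested loci. Their median log2 fold change was 0.0021. The 7 TRiC subunit loci ranged 1.13- to 1.42-fold over the 6 libraries. TCP1 and CCT8, subunits of TRiC, had log2 fold changes of 0.03 (adjusted p 0.971, SE 0.17) and 0.21 (adjusted p 0.731, SE 0.15). TCP1 shares its locus with RF00429.

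Across all other chaperone lists, 78 genes were listed, 68 loci were matched and 64 tested. These lists also hold heat shock factors, HSBP1 and mitochondrial proteases, which are not chaperones in the strict sense. The limits were passed by 0 higher and 1 lower locus (1.56%), beside 7.81% of all tested loci, and 0 had an adjusted p under 0.05 in the limma fit, with 1 at an unadjusted p under 0.05. The median log2 fold change was -0.08, against -0.13 over all tested loci. After median scaling of the libraries it was 0.05, against -0.01. The groups did not overlap at 1 of the 64 loci with DMOG above (DNAJB4), beside 4.47% of all tested loci. They did not overlap at 3 with DMOG below (HSF3, DNAJA3 and HSCB, the last named for this count), beside 11.4%. At the 64 loci, the median range over the 6 libraries was 1.95-fold.

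**Figure D3:**
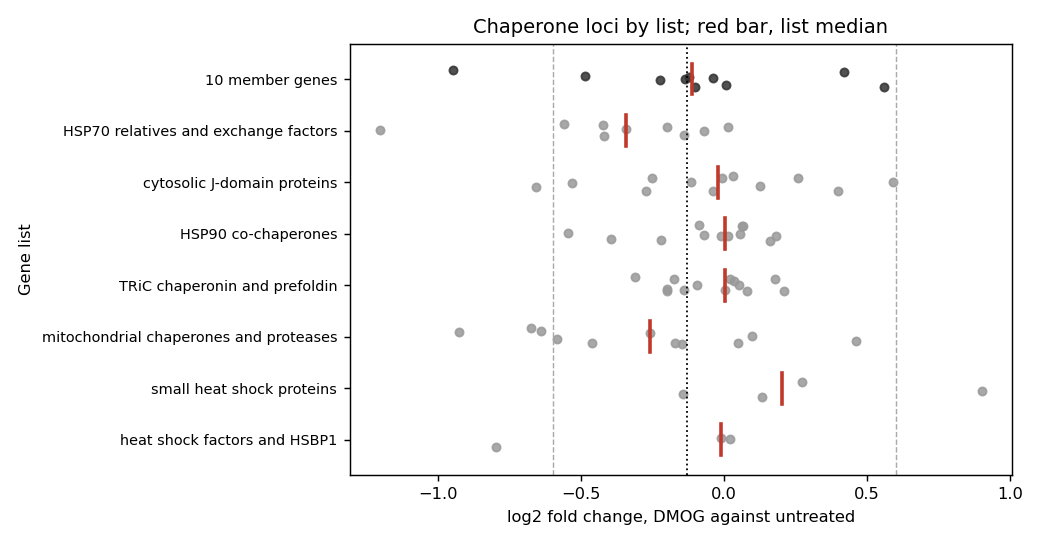
Log2 fold change with DMOG against untreated for every tested locus of the 10 members (dark) and of the other chaperone lists (grey), with a red bar at each list median, a dotted line at the median of all tested loci (-0.13) and dashed lines at 0.60 in either direction. Points lie from -1.20 (BAG3) to 0.90 (HSPB2, at a locus shared with C11orf52), genes named for these extremes. Of the points outside the dashed lines only HSF2 and DNAJA3 also had an unadjusted p under 0.05.

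Ratios within a library do not depend on scaling between libraries and were compared for 3 pairs of members. HSP90AA1 exceeded HSP90AB1 by 5.13-, 3.44- and 4.79-fold with DMOG and by 3.85-, 9.10- and 3.28-fold without. Only untreated library 2, where HSP90AB1 was lowest, stood apart. The log2 ratio differed by -0.14 between the groups (95% interval -1.49 to 1.20, exact two-sided permutation p 0.9, adjusted over 3 pairs 1). The ratio of HSPA2 to HSPA8 was 0.0643, 0.195 and 0.0924 with DMOG and 0.0594, 0.124 and 0.170 without, a difference in log2 ratio of -0.04 (interval -1.82 to 1.75, exact permutation p 1, adjusted 1). HSPD1 exceeded HSPE1 by 1.81-, 2.22- and 1.66-fold with DMOG and by 1.86-, 1.53- and 2.56-fold without. That log2 ratio differed by -0.04 (interval -0.73 to 0.64, exact permutation p 0.9, adjusted 1). The smallest p this design can give is 0.1. HSPA2 and HSPA8, and the 2 HSP90 genes, are close paralogs. How reads that fit both copies were assigned is not given in the sources used here, so their division is uncertain.

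**Figure D4:**
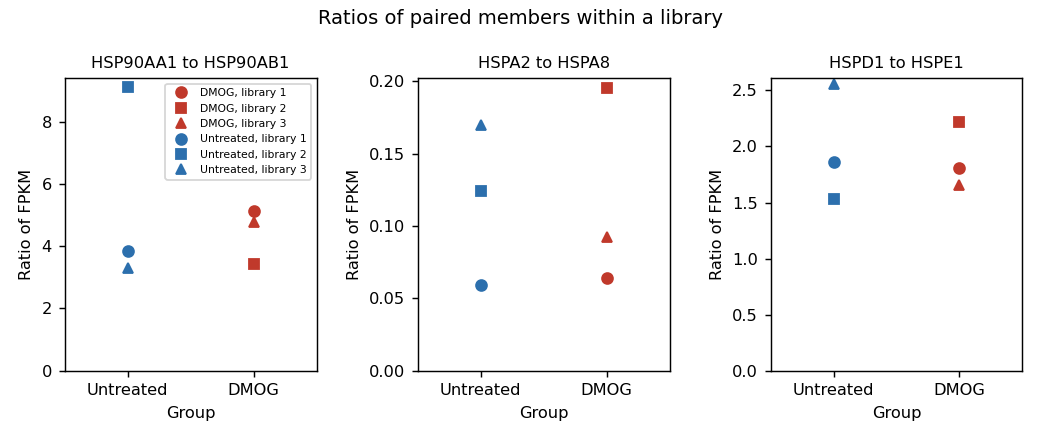
Ratio of FPKM of 3 pairs of members within each library, untreated in blue and DMOG in red, with a symbol for each library and the axis from 0. The groups overlap in all 3 panels, and the ratio of HSP90AA1 to HSP90AB1 is highest in untreated library 2, at 9.10.

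The order of the libraries was also compared with that of the lens marker genes, a comparison chosen after the values were seen. For 2 of the 10 members, HSPA8 and HSP90AB1, the 3 highest libraries were DMOG library 1, DMOG library 2 and untreated library 3, and the other 8 members had other libraries among their 3 highest. The same 3 libraries were highest at 10 of the 12 lens marker loci, all but PROX1 and CDH2, and at 13.7% of all tested loci. HSPA8 had the same order of all 6 libraries as CRYAA, αA-crystallin, which measured 864, 841 and 599 FPKM with DMOG against 792, 719 and 962 without. The FPKM total of each library outside small RNA loci also had this order. The median FPKM of the tested loci was 5.99, 5.55 and 5.03 with DMOG against 5.87, 5.78 and 6.50 without. The share of all tested loci with the full order of HSPA8 was not counted. HSP90AB1 and CRYAB were both lowest in untreated library 2, followed by untreated library 1 and then DMOG library 3. PAX6, the lens and eye transcription factor, measured 16.9, 23.1 and 8.67 FPKM with DMOG against 15.1, 9.87 and 21.3 without, and BFSP1, a beaded filament gene, 12.7, 11.99 and 7.79 against 7.55, 7.01 and 15.1. Of the 12 lens marker loci, 0 passed the limits, beside 7.81% of all tested loci. The part of the lens genes, or of the library totals, in the spread of HSPA8 and HSP90AB1 was not tested.

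**Figure D5:**
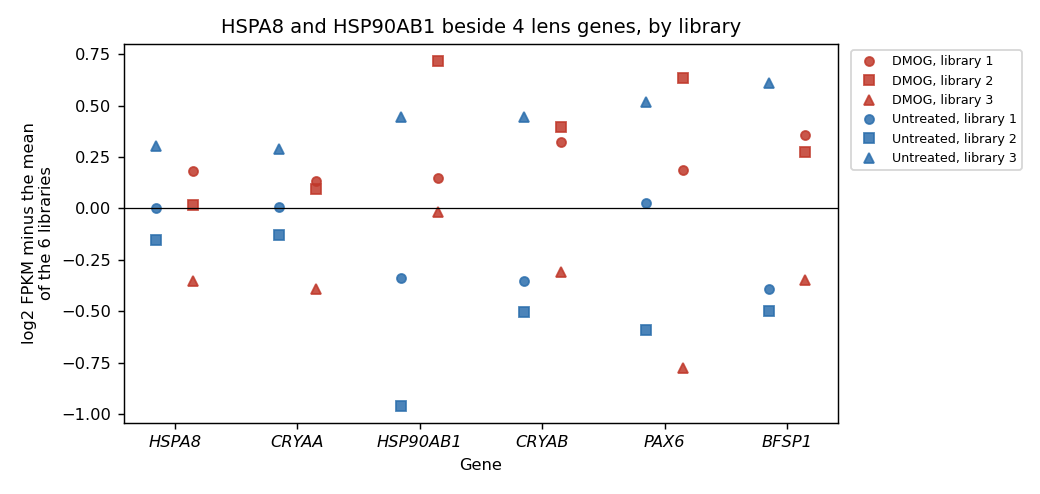
Log2 FPKM of HSPA8, HSP90AB1 and 4 lens genes in each library, relative to the mean of the 6 libraries for that gene, with untreated libraries in blue and DMOG libraries in red. The genes shown were taken, after the values were seen, from those with untreated library 3 and DMOG libraries 1 and 2 highest. The other members, and the lens markers PROX1 and CDH2, do not have this pattern and are not shown. Values are not corrected for the FPKM total of a library outside small RNA loci, which has the library order of HSPA8.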

How the data were processed

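The deposited table gives FPKM per library, rounded to 2 decimals, which the authors made after trimming with Cutadapt, mapping to galGal6 with its Ensembl annotation by Bowtie2 and HISAT2, assembly with StringTie and gffcompare, and estimation with edgeR, so a locus can join several genes. Tool versions are not given in the sources used here. The table also holds columns of the authors' own comparison (a fold, its log2 and a p), which were not used. Ratios of low FPKM between libraries showed no steps of whole reads, but rounding to 2 decimals can blur such steps at these levels. The check therefore could not give the depth, which is unknown.

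From the FPKM, log2(FPKM + 0.5) was fitted in limma 3.58.1 (R 4.3.3, mean-variance trend) at the 9816 loci that averaged 1 FPKM or more, with treatment as the only term and Benjamini-Hochberg adjustment over all of them. All 10 members passed this filter. Fold changes are on that scale, and intervals are 95% intervals of the fit, or of Student's distribution on 3 and 3 libraries for ratios, which assumes normal values. Ratios were tested by exact permutation over the 20 divisions of the libraries. The fit was tested on simulated data. Summaries used Python 3.11.15, pandas 2.3.3, numpy 2.4.6 and scipy 1.17.1.

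Named genes are the members, other chaperone loci past the limits, the highest 2 loci by mean FPKM in each list, EGLN3 and BNIP3L; genes outside this rule are identified as such. BNIP3L averaged 55.9 FPKM with DMOG and 23.8 without. The members and lists were chosen with earlier results of these data known. Alternatives were other pseudocounts, filters, scalings, moderation, weights, a replicate block, leaving out joined loci and each library; scaling outside small RNA loci was chosen after seeing the data.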

Additional observations from a re-analysis of the deposited data

How the results depend on the processing

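The number of members past the limits was 1, HSF2, in every alternative that used all 6 libraries. Leaving out each library in turn gave 0 to 2: HSF2 and HSPH1 without DMOG library 1, HSF2 alone without untreated library 1, HSP90AB1 alone without untreated library 3, and 0 without any other library. Other chaperone loci past the limits numbered 2 with quantile normalization, 3 with array weights and 0 to 5 when each library was left out, the 5 without DMOG library 1 and the 0 without untreated library 1. Over all loci there were 767, 414 at a mean of at least 5 FPKM (fewer loci tested), and 541 to 1008 with a library left out. With replicate number as a block there were 596, and 1 member, HSF2. Deviations from the group means correlated at -0.11, -0.17 and -0.23 between same-numbered libraries. Between libraries of different number they correlated at -0.0068 to 0.16. Deviations from a mean of 3 libraries sum to 0, so these values are not independent of each other. Whether same-numbered cultures shared a preparation was not tested.

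Log2 fold changes near 0 changed sign with median scaling for HSPA8 (0.031), HSPD1 (0.094), DNAJA1 (0.0068), HSPA4L (0.059) and HSBP1 (0.11), and with upper quartile scaling for HSPD1 (0.047), HSPA4L (0.013) and HSBP1 (0.066). They did so with quantile normalization for HSPE1 (-0.10), TCP1 (-0.00056) and HSBP1 (0.078), with array weights for HSPA2 (0.00016), HSPA8 (0.0078), HSPE1 (-0.051) and HSPA4L (0.10), and with scaling outside small RNA loci for HSPE1 (-0.0062). With each library left out, the ranges were -0.62 to 0.31 for HSPA2, -0.22 to 0.049 for HSPA8, -0.085 to 0.032 for HSPD1, -0.13 to 0.17 for HSPE1, -0.57 to 0.10 for HSPB1, -0.073 to 0.13 for TCP1, -0.033 to 0.12 for HSPA9, -0.010 to 0.15 for PPID, -0.037 to 0.090 for DNAJC5, -0.37 to 0.065 for HSPB9, -0.36 to 0.12 for HSPA4L and -0.70 to 0.61 for HSBP1. The differences in log2 ratio, none of them called, ranged from -0.42 (without untreated library 3) to 0.30 (without untreated library 2) for HSP90AA1 to HSP90AB1, from -0.48 (without DMOG library 2) to 0.32 (without DMOG library 1) for HSPA2 to HSPA8, and from -0.21 (without untreated library 2) to 0.15 (without untreated library 3) for HSPD1 to HSPE1. The cause was not tested. Of 494 values of the 25 named genes (members and other lists), 439 kept their direction and side of the limits, 8 no longer passed, 6 newly passed and 41 changed sign. Other filters, other moderation, the replicate block and leaving out joined loci do not alter a log2 fold change. Values from those settings therefore could not change sign. Only HSF2 and DNAJA3 passed in the main fit, so only they could stop passing. Depth is unknown, so its limit could not be given.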
